A study of Rattus norvegicus with 23 samples.

Results

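To find out what hypoxia-ischemia (HI) added in pups that had already received lipopolysaccharide (LPS), microglia of the LPS/HI group were compared with microglia of the LPS group over all 20301 genes of the deposited table. The comparison took the 6 samples labelled LPS/HI and the 5 samples labelled LPS, which are 11 of the 23 samples of the series. The remaining 6 Sham and 6 NaCl/HI samples entered the same fit and gave a comparison of HI without LPS. All pups were Wistar rats of both sexes that were operated on postnatal day 7. Both groups of the comparison carried the same LPS treatment, an intraperitoneal dose of 0.1 mg/kg of a cell wall product of Gram-negative bacteria, given 4 h before the operation. LPS pups then had sham surgery, and each LPS sample held the microglia of the entire brain of 1 pup. LPS/HI pups had their left common carotid artery ligated, breathed 8% oxygen for 50 min and were kept at normal body temperature for 5 h, and each LPS/HI sample pooled the ipsilateral hemispheres of 2 pups. Sham pups had sham surgery alone, and NaCl/HI pups received saline before the same HI, with whole brains and pooled hemispheres taken as in the LPS and the LPS/HI group. A difference between LPS/HI and LPS can therefore not be told apart from a difference between an injured hemisphere and an entire brain, or between pooled and single pups. NaCl/HI against Sham has the same limits and also holds the saline injection, which is not described for Sham pups.

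Microglia are the resident macrophages of the brain, and in the first postnatal weeks they still divide while they settle the tissue. Bacterial LPS activates them through a Toll-like receptor, and HI exposes them to dying neurons, a leaking vessel wall and blood leukocytes. Cells were isolated 24 h after the operation with magnetic beads against CD11b/c, an integrin that neutrophils, monocytes and border macrophages also carry and that endothelial cells, pericytes and fibroblasts lack.

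Values are log2 expression levels that the authors had regularised and from which they had removed 3 surrogate variables, so every difference below is a difference of group means on the log2 scale. Read depth cannot be taken from these values. Sample medians lay between 7.75 and 7.82 in all 23 samples. A gene was called when its adjusted p was under 0.05 in a limma fit of all samples with Benjamini-Hochberg adjustment over all genes. The surrogate variables were removed with the groups protected, which can make such p-values too low.

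The microglial label held in both groups. The fractalkine receptor Cx3cr1 had a level of 15.46 ± 0.063 (SD, n = 5) in the LPS group and 15.50 ± 0.060 (SD, n = 6) in the LPS/HI group. The growth factor receptor Csf1r had 16.51 ± 0.064 and 16.41 ± 0.071, and the complement subunit gene C1qa had 15.37 ± 0.064 and 15.27 ± 0.14. None of the 7 markers Cx3cr1, P2ry12, Tmem119, Csf1r, C1qa, Aif1 and Itgam passed the test. The largest difference among them was that of Tmem119, with 0.48 (95% confidence interval 0.10 to 0.86, adjusted p = 0.18). Correlations of replicates across genes were 0.99795 to 0.99963 within the LPS and LPS/HI groups. They rest on levels that differ between genes and cannot show how alike replicates were in single genes. Samples are numbered within their group, as in the labels.

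Few genes were called between LPS/HI and LPS, and their differences were small on the regularised scale. The regularised logarithm draws low genes toward their mean, so such differences can be understated. In all, 394 of 20301 genes were called (1.94%), of which 248 were higher in LPS/HI (1.22%) and 146 were lower (0.719%). At an unadjusted p under 0.05 there were 3137 genes (15.5%). Past a fold of 2 there were 7 genes (0.0345%), all of them higher in LPS/HI. The genes that rose had a median log2 difference of 0.36, from 0.057 to 1.41, and 45 of them exceeded 0.5. The genes that fell had a median of -0.30 and sizes from 0.083 to 0.72, and 4 of them exceeded 0.5. In 180 of the 248 genes every LPS/HI sample lay above every LPS sample, and in 98 of the 146 every LPS/HI sample lay below. Over all genes, the groups did not overlap in 846 (4.17%), with LPS/HI above in 470 (2.32%) and below in 376 (1.85%).

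The split by direction depended on scaling, with 198 genes higher and 404 lower after each sample was centred on its median. The count of called genes was 81 without LPS sample 4, 124 without LPS sample 2, 182 without LPS sample 5, 120 without LPS/HI sample 2, 157 without LPS/HI sample 5, 170 without LPS/HI sample 4 and 229 without LPS/HI sample 1. The number past a fold of 2 was 1 without LPS/HI sample 4, 2 without LPS sample 2, 4 or 5 or LPS/HI sample 1 or 2, 4 without LPS/HI sample 5 and 11 without LPS/HI sample 6. Libraries were numbered from 1 to 23, and the labels name no series. For a check they were split here by number. The first series, 1 to 12, held 3 samples of each group, and the second, 13 to 23, held 2 of LPS and 3 of LPS/HI. Within the first series alone 1 gene was called and within the second 95. None of the 82 called genes examined singly changed sign within either series.

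**Figure D1:**
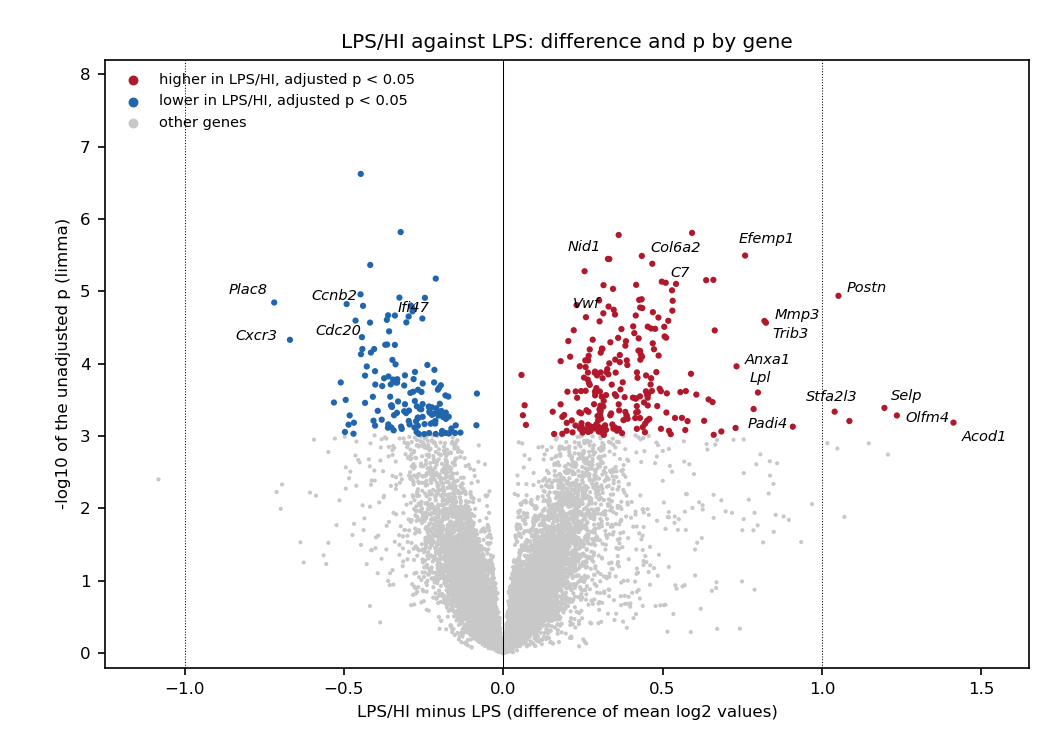
Difference between the group means of LPS/HI and LPS on the log2 scale (horizontal axis) against -log10 of the unadjusted limma p (vertical axis), 1 point per gene, with dotted lines at a fold of 2. Red points are genes called higher in LPS/HI and blue points genes called lower, and the genes past a fold of 2 all lie to the right, with Acod1 farthest at 1.41.

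Genes of the extracellular matrix formed the group with the most calls. Of 39 measured genes of fibroblasts and extracellular matrix, 18 rose and none fell, against 1.22% of all genes that rose, and the median difference of the list was 0.32 beside 0.0016 over all genes. The mean level of the list was 10.09 ± 0.12 (SD, n = 5) in the LPS group and 10.39 ± 0.051 (SD, n = 6) in the LPS/HI group. LPS samples ranged from 9.95 to 10.25 and LPS/HI samples from 10.31 to 10.46, so the groups did not overlap.

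Periostin (Postn), a matricellular protein of healing tissue, changed most. Its levels in the LPS samples were 7.30, 7.08, 7.28, 6.84 and 6.39, and in LPS/HI they ran from 7.49 over a median of 7.93 to 8.501. Every LPS/HI sample was above every LPS sample, with LPS sample 5 lowest of all, and the difference was 1.05 ± 0.19 (SE, adjusted p = 0.0088). The collagen VI chain Col6a3 had 9.12, 8.96, 8.96, 8.80 and 8.69 in LPS, and 9.25, 9.40 and 9.60 as lowest, median and highest in LPS/HI. Again the groups were separate, and Col6a3 rose by 0.51 ± 0.087 (SE, adjusted p = 0.0083). The other collagen VI chains moved with it, Col6a2 by 0.43 ± 0.070 (SE, adjusted p = 0.0079) and Col6a1 by 0.43 ± 0.077 (SE, adjusted p = 0.0088). Decorin (Dcn), a small proteoglycan that binds collagen fibrils, lay between 6.38 and 6.79 in LPS and between 6.94 and 7.23 in LPS/HI. It rose by 0.53 ± 0.092 (SE, adjusted p = 0.0088), and its groups did not overlap.

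Components of the basement membrane, the sheet on which vessel walls rest, were among the genes that rose. Nidogen 1 (Nid1), which links laminin to collagen IV, had 11.40, 11.28, 11.24, 11.14 and 11.15 in LPS and ran from 11.46 over 11.56 to 11.68 in LPS/HI. All LPS/HI samples were above all LPS samples, and the difference was 0.33 ± 0.054 (SE, adjusted p = 0.0079). The laminin chain Lama4 rose by 0.33 (adjusted p = 0.0088), Lamb1 by 0.29 (adjusted p = 0.027), Lamc1 by 0.27 (adjusted p = 0.017) and Lama2 by 0.23 (adjusted p = 0.045). Both main chains of collagen IV, Col4a1 with 0.42 and Col4a2 with 0.39, passed the test, but their groups overlapped. Outside the list, fibulin 3 (Efemp1), a glycoprotein of elastic matrix, went from between 5.95 and 6.73 in LPS to between 6.81 and 7.22 in LPS/HI. Its difference was 0.76 ± 0.12 (SE, adjusted p = 0.0079).

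Enzymes that cut or protect matrix were called in 5 of 25 genes, all higher (1.22% of all genes), with a list median of 0.30. Stromelysin 1 (Mmp3) had levels of 2.47, 2.32, 2.40, 2.36 and 2.04 in LPS and of 2.76, 3.00 and 3.88 as lowest, median and highest in LPS/HI. The groups did not overlap and the highest value was that of LPS/HI sample 4. Mmp3 rose by 0.82 ± 0.16 (SE, adjusted p = 0.0092). The broad protease inhibitor A2m rose by 0.49 ± 0.10 (SE, adjusted p = 0.016), the versican-cleaving Adamts9 by 0.32 ± 0.074 (SE, adjusted p = 0.029) and tissue plasminogen activator (Plat) by 0.30 (adjusted p = 0.048). Gelatinase B (Mmp9), which the neutrophil list also holds, rose by 0.91 ± 0.23 (SE, adjusted p = 0.045), with overlapping groups. The protease count was 1 without LPS sample 4, 2 without LPS sample 2 or LPS/HI sample 2, 4 or 5, and 3 to 5 without any other library, and it was 3 with only the LPS and LPS/HI samples or with quantile normalization. Without LPS sample 4 the adjusted p was 0.058 for A2m, 0.11 for Adamts9 and 0.15 for Mmp9, and their calls were lost in 1, 6 and 16 of the 23 fits that left out 1 library.

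Genes of the vessel wall were called in 5 of 40 endothelial genes, in 4 of 20 genes of pericytes and smooth muscle and in 4 of 37 genes of angiogenesis signalling, all higher in LPS/HI (1.22% of all genes). The list medians were 0.20, 0.24 and 0.20. Selectin P (Selp), which lets leukocytes roll on activated endothelium and is also stored in platelets, had 5.95, 5.47, 5.90, 4.97 and 5.76 in LPS. In LPS/HI it ran from 5.98 over a median of 6.69 to 7.77. The lowest LPS/HI sample, sample 6, lay just above the highest LPS sample, and the difference was 1.196 ± 0.29 (SE, adjusted p = 0.035). Von Willebrand factor (Vwf), a clotting protein of endothelium, had 12.92, 12.77, 12.81, 12.76 and 12.63 in LPS and 12.95, 13.12 and 13.29 as lowest, median and highest in LPS/HI. Its groups were separate by a narrow margin, and it rose by 0.35 ± 0.065 (SE, adjusted p = 0.0091).

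Among angiogenic signals, the endothelial growth factor receptor Flt1 rose by 0.31 ± 0.062 (SE, adjusted p = 0.015) and angiopoietin 2 (Angpt2), which loosens vessel walls, by 0.36 ± 0.071 (SE, adjusted p = 0.012). The adhesion molecule Mcam of pericytes and endothelium rose by 0.42 ± 0.086 (SE, adjusted p = 0.015), and the Notch ligand Dll4 by 0.42 ± 0.11 (SE, adjusted p = 0.046). Angpt2, Mcam and Dll4 had separate groups, and those of Flt1 met at 11.45. Among mural cell genes, the actin-binding Cald1 rose by 0.39 (adjusted p = 0.017), and the channel subunits Kcnj8 and Abcc9 by 0.28 (adjusted p = 0.045) and 0.26 (adjusted p = 0.047).

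Most markers of these other cell types had a higher mean in LPS/HI. The summed level of the 39 genes of fibroblasts and matrix was 16.71 to 16.97 in LPS and 17.01 to 17.21 in LPS/HI, that of the 40 endothelial genes 15.98 to 16.20 and 16.14 to 16.43, and that of the 20 pericyte genes 13.63 to 13.84 and 13.86 to 14.01. All 20 pericyte genes, 36 of 40 endothelial genes and 36 of 39 matrix genes had a higher mean in LPS/HI, beside 51.0% of all genes. The part of these cells in the differences was not tested, and more cells of a type cannot be told apart from more RNA per cell in such bulk samples.

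The list medians were positive within both library series, libraries 1 to 12 and 13 to 23, at 0.20 and 0.47 for the matrix list and at 0.045 and 0.38 for endothelium. Within the first series no gene of these lists was called, and within the second 11 matrix, 4 endothelial and 2 pericyte genes were, all higher. In the second series 4 genes of angiogenesis signalling were called higher and 1 lower. That list also had 1 gene called lower with median centring and without Sham sample 1, LPS sample 3 or LPS/HI sample 3. A fit of only the LPS and LPS/HI samples called 14 matrix genes, 1 endothelial gene, 3 pericyte genes and 2 genes of angiogenesis signalling, and quantile normalization called 2 pericyte genes. Between 8 (without LPS sample 4) and 20 (without LPS sample 1) matrix genes were called when 1 library was left out, and there were 9 without LPS sample 2, 10 without LPS/HI sample 2, 11 without LPS sample 5 or LPS/HI sample 5 and 12 without LPS/HI sample 4. Without any 1 of the 12 Sham and NaCl/HI libraries the matrix count stayed between 16 and 18. The calls of Postn, Col6a2, Col6a3, Dcn, Nid1, Efemp1, Mmp3, Vwf and Flt1 held without any single library. Selp had an adjusted p of 0.13 without LPS sample 4, and of 0.056 to 0.088 without LPS sample 2 or 5 or LPS/HI sample 1, 2, 4 or 5. The endothelial count was 2 without LPS sample 2, 4 or 5 or without LPS/HI sample 2, 4 or 5, 8 without LPS sample 1 and 9 without LPS/HI sample 3. Without LPS sample 4 no pericyte gene was called and 1 gene of angiogenesis signalling, with adjusted p of 0.057 for Angpt2, 0.068 for Mcam, 0.078 for Cald1 and 0.155 for Dll4. The calls of Dll4, Kcnj8 and Abcc9 were lost in 18, 15 and 18 of the 23 fits that left out 1 library. The pericyte count was 1 without LPS sample 5 and 2 without LPS sample 2, any of LPS/HI samples 1 to 6, Sham sample 2 or 4 or NaCl/HI sample 1 or 5.

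**Figure D2:**
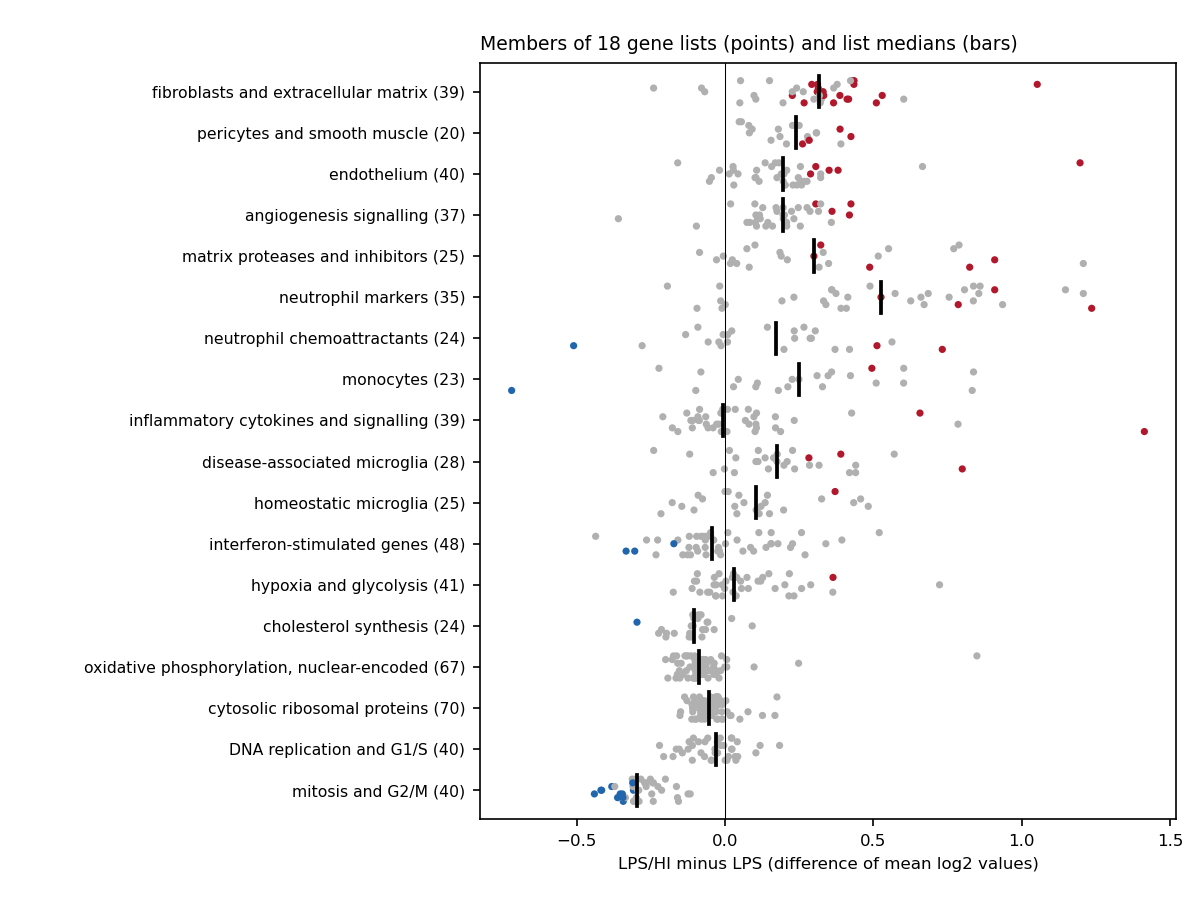
Difference between LPS/HI and LPS on the log2 scale (horizontal axis) for the members of 18 gene lists (rows, with the number of genes measured), where each point is a gene and each bar the median of its list. Red points were called higher in LPS/HI and blue points lower, and the matrix list has the most red points with a median of 0.32, while the whole mitosis list lies left of 0.

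Neutrophil genes were higher in LPS/HI in 30 of 35 cases, with a median difference of 0.53, but 4 of the 35 were called, beside 51.0% of all genes with a higher mean and 1.22% called higher. At an unadjusted limma p under 0.05 there were 21 of the 35, beside 15.5% of all genes. With quantile normalization 1 was called, with only the LPS and LPS/HI samples none, and with a library series block 7. Neutrophils are short-lived blood granulocytes that enter the injured brain early and carry CD11b. Olfactomedin 4 (Olfm4), a protein of their specific granules, had levels of 7.12, 6.63, 6.56, 6.36 and 7.51 in LPS, and of 7.09, 8.14 and 9.25 as lowest, median and highest in LPS/HI. The groups overlapped through LPS/HI sample 6, and the difference was 1.24 ± 0.30 (SE, adjusted p = 0.039). Padi4, the enzyme that citrullinates histones in neutrophil extracellular traps, had 4.64, 4.45, 4.34, 4.12 and 4.60 in LPS and ran from 4.69 over 5.20 to 6.04 in LPS/HI. Its groups did not overlap, and it rose by 0.79 ± 0.19 (SE, adjusted p = 0.036). The formyl peptide receptor Fpr2 rose by 0.53 ± 0.14 (SE, adjusted p = 0.049), and Mmp9, given above, was the fourth gene called. Stfa2l3, a stefin that inhibits cysteine proteases, is not in the neutrophil list and was named for its size of change. It lay between 5.23 and 5.63 in LPS and between 5.87 and 7.59 in LPS/HI, and rose by 1.04 ± 0.25 (SE, adjusted p = 0.037). Its call was lost in 7 of the 23 fits that left out 1 library, with an adjusted p of up to 0.128, and that of Fpr2 in 18.

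Well-known neutrophil genes missed the threshold. The alarmin S100a9 differed by 1.15 (adjusted p = 0.054), the collagenase Mmp8 by 1.21 (adjusted p = 0.064), S100a8 by 0.86 (adjusted p = 0.16) and lactoferrin (Ltf) by 0.00091 (adjusted p = 0.997). Of 19 granule proteins, Olfm4 was the one called, beside 1.22% of all genes called higher. An unadjusted limma p under 0.05 was found for 11 of the 19, beside 15.5% of all genes. The mean level of the neutrophil list was 6.28 ± 0.17 (SD, n = 5) in the LPS group and 6.81 ± 0.32 (SD, n = 6) in the LPS/HI group. Its range was 6.02 to 6.42 in LPS and 6.46 to 7.30 in LPS/HI, with LPS/HI sample 4 highest. The same sample had the highest level of Olfm4, Padi4, Selp, Stfa2l3, Mmp3 and Anxa1. The summed level of the neutrophil list was 13.25 to 13.61 in LPS and 13.47 to 14.22 in LPS/HI, and the part of neutrophils in the difference was not tested.

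Without LPS/HI sample 4 no neutrophil gene was called, and the median difference was 0.49. None was called either without LPS sample 2, 3 or 4 or LPS/HI sample 1, 2 or 3, and 2 were called without LPS sample 5, Sham sample 2, 3, 4 or 6 or NaCl/HI sample 1, 5 or 6, and 7 without NaCl/HI sample 3 or 4, while the median stayed between 0.46 and 0.64 when any library was left out. Without LPS/HI sample 4 the adjusted p was 0.078 for Olfm4 and 0.064 for Padi4.

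Of 24 genes that attract neutrophils or steer their entry, 2 rose and 1 fell, beside 1.22% and 0.719% of all genes. Annexin A1 (Anxa1), which limits neutrophil entry and promotes its resolution, had 9.75, 9.57, 9.77, 9.27 and 9.77 in LPS and 9.88, 10.34 and 11.05 as lowest, median and highest in LPS/HI. No LPS/HI sample reached down to the LPS samples, and the difference was 0.73 ± 0.15 (SE, adjusted p = 0.019). The chemokine Ccl7, a ligand of monocyte receptors, rose by 0.51 ± 0.12 (SE, adjusted p = 0.037). Cxcl17, a chemokine of mucosal tissue, was at 8.60, 8.33, 8.21, 8.73 and 8.62 in LPS and at 7.81, 7.90 and 8.44 in LPS/HI, where sample 3 stood above the rest. It fell by 0.51 on the log2 scale (SE 0.11, adjusted p = 0.024). The call of Anxa1 was lost without LPS sample 2 (adjusted p = 0.054) or LPS sample 4 (adjusted p = 0.086), that of Ccl7 had an adjusted p of up to 0.14 and that of Cxcl17 of up to 0.096, both without LPS sample 4.

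**Figure D3:**
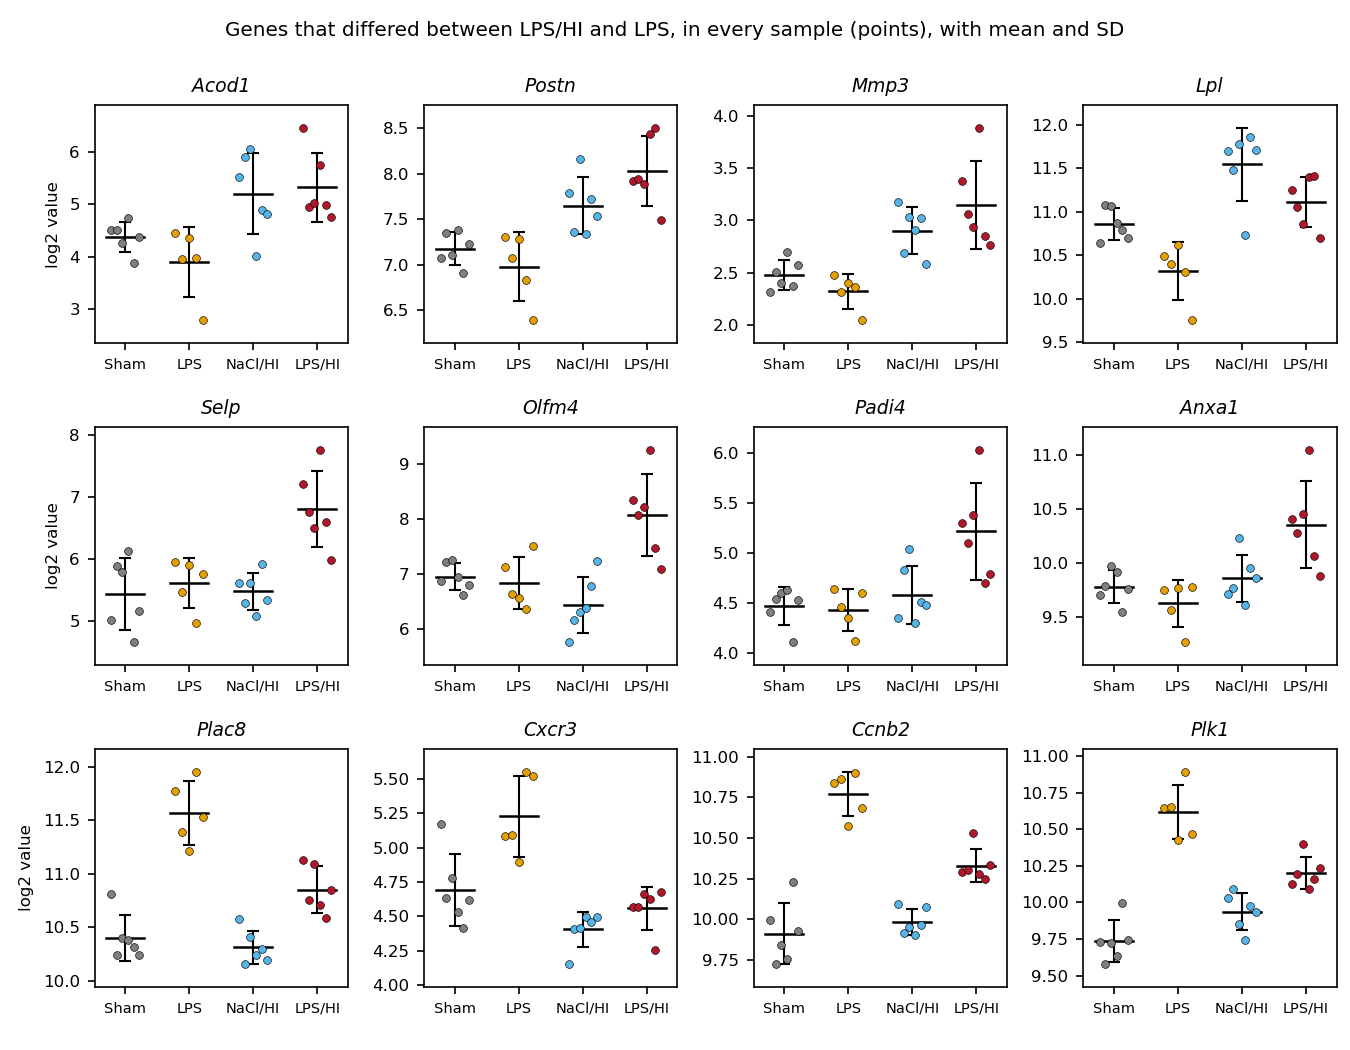
Log2 level of 12 genes in every sample of the 4 groups, where each point is a sample, the long bar is the group mean and the error bar is the SD. Postn, Mmp3, Lpl, Selp, Padi4 and Anxa1 lie higher in all LPS/HI than in all LPS samples, Olfm4 overlaps, and Plac8, Cxcr3, Ccnb2 and Plk1 lie lower.

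The largest difference of all called genes was that of Acod1, which makes the antimicrobial metabolite itaconate in activated macrophages. Its levels in LPS were 4.46, 3.95, 4.36, 3.98 and 2.79, and in LPS/HI they ran from 4.76 over a median of 5.01 to 6.45. Every LPS/HI sample exceeded every LPS sample, with LPS sample 5 lowest and LPS/HI sample 1 highest. The difference was 1.41 ± 0.35 (SE, adjusted p = 0.043), and 0.83 separated NaCl/HI from Sham. The call of Acod1 was lost in 13 of the 23 fits that left out 1 library, with an adjusted p of up to 0.11. Of 39 inflammatory genes, Acod1 and the pentraxin Ptx3 rose (Ptx3 by 0.66 ± 0.15, SE, adjusted p = 0.033), none fell, beside 1.22% and 0.719% of all genes, and the list median was -0.0077. Ptx3 had an adjusted p of 0.10 without LPS sample 4.

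Lipid and injury-associated microglial genes were called in 3 of 28 cases, all higher (1.22% of all genes), with a list median of 0.18. Lipoprotein lipase (Lpl), which releases fatty acids from lipoproteins, had 10.50, 10.40, 10.62, 10.31 and 9.75 in LPS and 10.70, 11.16 and 11.41 as lowest, median and highest in LPS/HI. Its groups were separate and it rose by 0.80 ± 0.18 (SE, adjusted p = 0.028). The tetraspanin Cd9 rose by 0.39 ± 0.097 (SE, adjusted p = 0.040) and insulin-like growth factor 1 (Igf1) by 0.28 ± 0.072 (SE, adjusted p = 0.045), both with overlapping groups. None of the list was called without LPS sample 2, 4 or 5 or without LPS/HI sample 1, 2, 4 or 5, and 1 gene was called without LPS sample 1, Sham sample 2, 4 or 6 or NaCl/HI sample 1, or with only the LPS and LPS/HI samples. Of 25 homeostatic microglial genes, Olfml3 rose by 0.37 ± 0.071 (SE, adjusted p = 0.010) and its call held without any single library, while the list median was 0.11, beside 1.22% of all genes called higher.

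Among stress genes, the pseudokinase Trib3, a target of the integrated stress response, had 4.20, 3.85, 3.94, 3.83 and 3.55 in LPS and ran from 4.34 over 4.70 to 4.95 in LPS/HI. The groups did not overlap, and the difference was 0.82 ± 0.15 (SE, adjusted p = 0.0092). Over all genes, 1.22% were called higher and 0.719% lower, which is the background for the stress lists. Trib3 was 1 of 2 genes called among 30 of the unfolded protein and integrated stress response, and the other, the chaperone partner Sdf2l1, fell by 0.33 (adjusted p = 0.032). The growth arrest gene Gadd45a rose by 0.45 ± 0.10 (SE, adjusted p = 0.029) as 1 of 34 genes of apoptosis and p53. The neuronal enolase Eno2 rose by 0.36 ± 0.088 (SE, adjusted p = 0.037) as 1 of 41 genes of hypoxia and glycolysis, whose list median was 0.029. Of 22 glucocorticoid-responsive genes, the kinase Sgk1 rose by 0.42 ± 0.10 (SE, adjusted p = 0.037) and Angptl4 by 0.38 ± 0.094 (SE, adjusted p = 0.042). Complement component C7 rose by 0.50 ± 0.085 (SE, adjusted p = 0.0083) as 1 of 25 complement genes. The calls of Trib3 and C7 held without any single library, and those of Sdf2l1, Gadd45a, Eno2, Sgk1 and Angptl4 did not, with adjusted p of 0.11 to 0.14 without LPS sample 4 and losses in 7, 6, 7, 7 and 11 of 23 such fits.

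Other genes with separate groups and large rises were the sodium-proton exchanger Slc9a2 (0.66 ± 0.11, SE, adjusted p = 0.0083), the asparaginase Aspg (0.66 ± 0.13, SE, adjusted p = 0.010), the orphan receptor Gpr153 (0.64 ± 0.15, SE, adjusted p = 0.031) and the kinase scaffold Akap12 (0.59 ± 0.091, SE, adjusted p = 0.0079). Akap12 lay between 9.26 and 9.78 in LPS and between 9.92 and 10.35 in LPS/HI. The unnamed gene LOC120095659 rose by 1.09 ± 0.27 (SE, adjusted p = 0.042), with 5.01, 4.97, 5.19, 5.16 and 5.48 in LPS and 5.26, 6.26 and 7.32 as lowest, median and highest in LPS/HI, which overlapped. The calls of Slc9a2, Aspg and Akap12 held without any single library, while Gpr153 (adjusted p up to 0.089) and LOC120095659 (up to 0.12) lost theirs without LPS sample 4 among others.

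Genes of mitosis were the main group that fell. Of 40 measured genes of mitosis and G2/M, 11 were called lower in LPS/HI and none higher, against 0.719% of all genes that fell, and all 40 had a lower mean than in LPS. The list median was -0.30, with single genes between -0.44 and -0.12. The mean level of the list was 10.87 ± 0.16 (SD, n = 5) in the LPS group and 10.58 ± 0.10 (SD, n = 6) in the LPS/HI group. LPS samples ranged from 10.71 to 11.14 and LPS/HI samples from 10.49 to 10.77, so they met at the edge. Sham samples lay between 10.07 and 10.47, below both.

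Cyclin B2 (Ccnb2), which drives entry into mitosis with its kinase Cdk1, had 10.84, 10.86, 10.58, 10.90 and 10.68 in LPS and ran from 10.25 over a median of 10.30 to 10.53 in LPS/HI. All LPS/HI samples were below all LPS samples, with sample 3 closest to them, and the difference was -0.44 ± 0.080 (SE, adjusted p = 0.0088). Cdc20, which switches on the anaphase-promoting complex, had 10.62, 10.64, 10.41, 10.84 and 10.40 in LPS and 10.06, 10.15 and 10.29 as lowest, median and highest in LPS/HI. The groups were separate, with a difference of -0.42 ± 0.079 (SE, adjusted p = 0.0092). Polo-like kinase 1 (Plk1) had 10.64, 10.65, 10.43, 10.89 and 10.47 in LPS and 10.09, 10.18 and 10.40 in LPS/HI. It fell by 0.42 on the log2 scale (SE 0.085, adjusted p = 0.015), again with separate groups.

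Securin (Pttg1), the inhibitor of sister chromatid separation, was not in the list but behaved alike, between 9.73 and 10.05 in LPS and between 9.34 and 9.68 in LPS/HI. Its difference was -0.44 ± 0.087 (SE, adjusted p = 0.012). The spindle factor Tpx2 differed by -0.35 (adjusted p = 0.023), the kinesin Kif2c by -0.35 (adjusted p = 0.025), the kinase Aurkb by -0.31 (adjusted p = 0.022) and the inhibitor of apoptosis Birc5, which works with Aurkb at centromeres, by -0.38 (adjusted p = 0.041). Proliferation marker Mki67 missed the threshold with -0.24 (adjusted p = 0.20), as did Top2a with -0.30 (adjusted p = 0.066). Among 40 genes of DNA replication and G1/S none was called by limma, 4 had an unadjusted p under 0.05, and their median difference was -0.030.

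The count of called mitosis genes moved with single libraries, with scaling and with the samples fitted, and the sign of the list median did not. There were 2 without LPS sample 4, 3 without LPS sample 2 or LPS/HI sample 2 or 4, 4 without LPS/HI sample 5, 6 without LPS/HI sample 1 or 6 and 7 without LPS sample 1, against 22 without LPS sample 3 or LPS/HI sample 3 and 24 without Sham sample 5. Median centring gave 23, and a fit of only the LPS and LPS/HI samples gave 3. Within the first library series none was called and within the second 1. The list median stayed between -0.34 and -0.23 when any 1 library was left out, and was -0.15 in libraries 1 to 12 and -0.46 in libraries 13 to 23. The calls of Ccnb2 and Cdc20 held without any single library, and without LPS sample 4 the adjusted p of Plk1 was 0.068 and that of Pttg1 0.052.

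**Figure D4:**
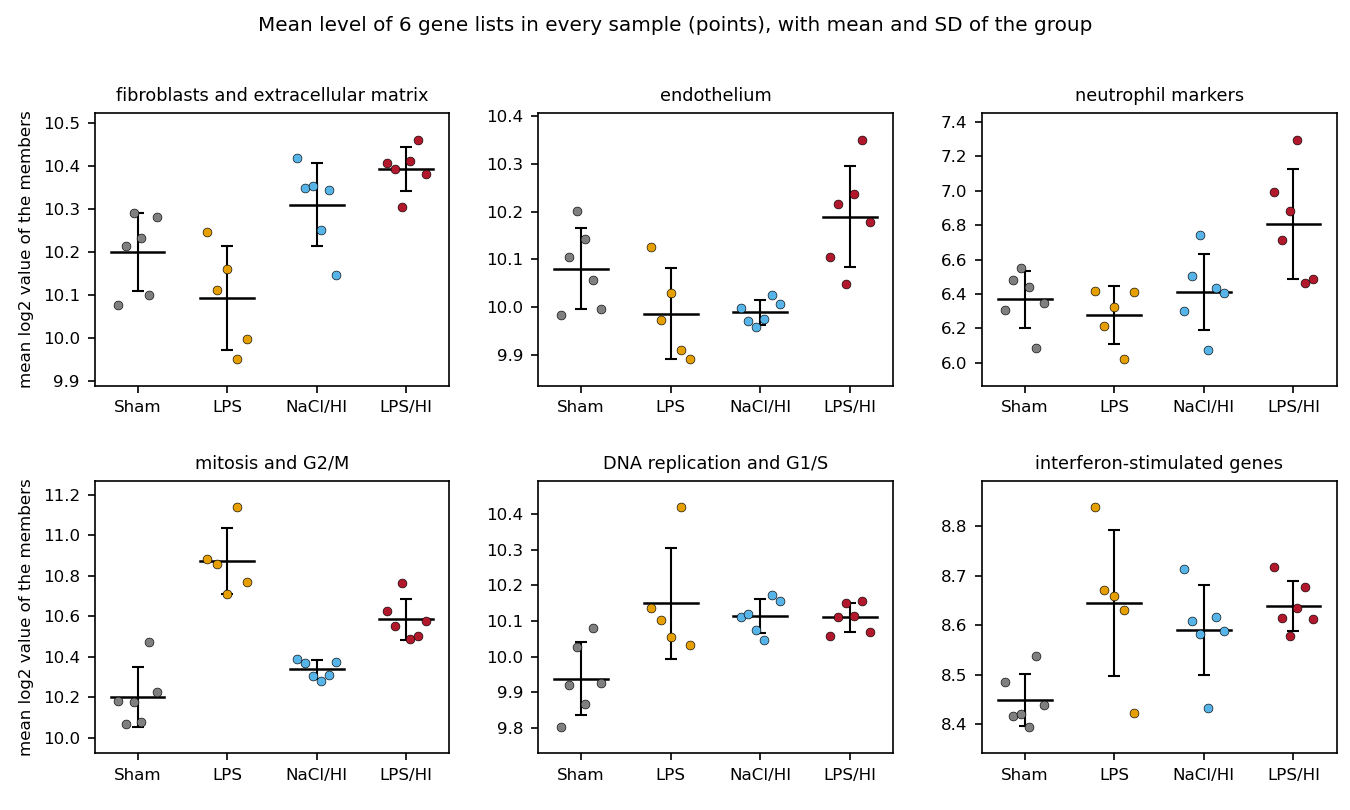
Mean log2 level of the members of 6 gene lists (vertical axes, separate scales) in every sample of the 4 groups, where each point is a sample, the long bar is the group mean and the error bar is the SD. The matrix list lies higher in all LPS/HI than in all LPS samples, and the mitosis list has its highest level in LPS at 10.87 with LPS/HI between LPS and Sham.

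Promoters of cell cycle genes are known for CCAAT boxes, bound by the factor NF-Y, and for the cell cycle homology region (CHR), bound by the DREAM and MuvB complexes. The 250 bases before the transcription start of Ccnb2, Cdc20, Plk1 and Pttg1 are printed here because the mitotic genes fell together. Sequences are from RefSeq on build GRCr8, written 5′ to 3′ along the strand of the gene, with capitals for CCAAT or its reverse complement ATTGG and for TTTGAA or TTCGAA or the reverse complement TTCAAA. The promoter of Ccnb2 is chr8:79981659-79981908 on the minus strand, that of Cdc20 chr5:137255800-137256049 on the minus strand, that of Plk1 chr1:186147408-186147657 on the plus strand and that of Pttg1 chr10:28406327-28406576 on the minus strand.
Ccnb2: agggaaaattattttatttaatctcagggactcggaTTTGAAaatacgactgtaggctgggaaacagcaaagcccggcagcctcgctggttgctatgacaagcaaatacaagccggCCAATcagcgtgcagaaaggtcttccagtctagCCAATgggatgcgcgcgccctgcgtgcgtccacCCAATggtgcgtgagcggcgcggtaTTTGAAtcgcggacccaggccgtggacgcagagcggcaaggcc
Cdc20: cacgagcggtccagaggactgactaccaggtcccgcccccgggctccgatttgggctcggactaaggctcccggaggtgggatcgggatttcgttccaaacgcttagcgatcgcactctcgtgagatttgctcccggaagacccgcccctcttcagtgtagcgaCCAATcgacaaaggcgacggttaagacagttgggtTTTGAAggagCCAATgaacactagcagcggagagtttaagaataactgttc
Plk1: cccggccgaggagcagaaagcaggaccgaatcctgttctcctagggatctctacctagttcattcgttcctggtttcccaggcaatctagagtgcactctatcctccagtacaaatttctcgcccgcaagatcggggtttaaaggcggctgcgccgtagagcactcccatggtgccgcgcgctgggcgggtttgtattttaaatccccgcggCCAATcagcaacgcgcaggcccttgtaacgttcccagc
Pttg1: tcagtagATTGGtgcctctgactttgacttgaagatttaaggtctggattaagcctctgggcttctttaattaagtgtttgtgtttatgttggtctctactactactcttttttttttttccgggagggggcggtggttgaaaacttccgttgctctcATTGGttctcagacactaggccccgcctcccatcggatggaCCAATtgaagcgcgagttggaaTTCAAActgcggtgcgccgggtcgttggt
The closest CCAAT box starts 68 bases before the start of transcription in Ccnb2, 41 in Cdc20, 38 in Plk1 and 51 in Pttg1. A CHR starts 43 bases before it in Ccnb2, 51 in Cdc20 and 29 in Pttg1, and Plk1 holds none of the letters searched for.

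A promoter was matched by symbol for 13939 of the 20301 genes and for 285 of the 394 called genes. On either strand, CCAAT was found in 57 of 111 promoters of genes that fell (51.4%), in 25.3% of those of genes that rose and in 34.9% of all promoters. TTTGAA or TTCGAA was found in 33 of the 111 (29.7%), in 10.9% and in 13.6%. In the mitosis list, CCAAT stood in 25 of 33 promoters (75.8%) and the CHR letters in 17 (51.5%). Both motifs were chosen after the fall of mitotic genes had been seen. The core of the hypoxia response element, ACGTG, was found in 14.9% of promoters of genes that rose, in 18.9% of those that fell and in 20% of all, and in 30.3% of the mitosis list. An NF-kB-like motif was found in 6.32%, 5.41% and 4.02%, an AP-1 motif (TGANTCA) in 9.77%, 3.6% and 5.04%, and a STAT-like motif (TTCNNNGAA) in 4.02%, 7.21% and 6.5%, and in 3, 0 and 0 of the 33 mitosis promoters. The letters of the last can overlap those of a CHR. A match describes a sequence and does not show that a factor binds it.

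The 15 largest falls with separate groups, chosen by size among genes with a name, held 4 histone genes. No list of histone genes was set up, so this count has no background to be read against. H3c1 differed by -0.48 (adjusted p = 0.039), Hist1h3b by -0.47 (adjusted p = 0.049), Hist3h2ba by -0.45 (adjusted p = 0.016) and Hist1h2bo by -0.41 (adjusted p = 0.029). These genes have near-identical copies that share reads, so values of single genes are uncertain. LPS/HI sample 1 was lowest in each of the 4, at 10.42, 11.02, 7.65 and 10.35. Without LPS sample 4 all 4 calls were lost, with adjusted p of 0.068 to 0.15, and over the 23 fits that left out 1 library they were lost in 7, 18, 1 and 5.

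The largest fall was that of Plac8, a cysteine-rich protein abundant in monocytes and activated myeloid cells. Its levels were 11.78, 11.39, 11.21, 11.96 and 11.53 in LPS and 10.59, 10.80 and 11.13 as lowest, median and highest in LPS/HI. No sample of one group reached the other, and the difference was -0.72 ± 0.13 (SE, adjusted p = 0.0088), with a call that held without any single library. Cxcr3, the receptor of interferon-induced chemokines, had 5.08, 5.09, 4.89, 5.55 and 5.52 in LPS and ran from 4.25 over 4.60 to 4.67 in LPS/HI. Its groups were separate, it differed by -0.67 ± 0.13 (SE, adjusted p = 0.012), and its adjusted p was 0.060 without LPS sample 4. The adhesion receptor Adgrg5 lay between 7.67 and 8.36 in LPS and between 7.24 and 7.61 in LPS/HI, a difference of -0.49 ± 0.12 (SE, adjusted p = 0.031).

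Other falls with separate groups were those of the poly(A) polymerase Tent5a (-0.42, adjusted p = 0.0079), the adaptor Gapt (-0.43, adjusted p = 0.019), the lipid transfer protein Tnfaip8l3 (-0.43, adjusted p = 0.022) and Tspear (-0.43, adjusted p = 0.033). The call of Tent5a held without any single library. Those of Gapt, Tnfaip8l3 and Tspear were lost without LPS sample 4, with adjusted p of 0.076, 0.089 and 0.13, and that of Adgrg5 without LPS sample 5 (0.077) and 6 other libraries.

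Of 48 interferon-stimulated genes, 3 fell and none rose, beside 0.719% of all genes that fell, and the list median was -0.043. With only the LPS and LPS/HI samples 1 gene was called. The median was 0.0060 without LPS sample 1, -0.069 in the first library series and 0.059 in the second. The GTPase Ifi47 had 10.61, 10.34, 10.26, 10.53 and 10.42 in LPS and 9.9996, 10.13 and 10.23 as lowest, median and highest in LPS/HI. Its groups were just separate, and it differed by -0.30 ± 0.057 (SE, adjusted p = 0.0092). The guanylate-binding protein Gbp4 differed by -0.33 ± 0.074 (SE, adjusted p = 0.024) and the myeloid transcription factor Irf8 by -0.17 ± 0.040 (SE, adjusted p = 0.029). The call of Ifi47 held without any single library, and those of Gbp4 and Irf8 were lost without LPS sample 4, with adjusted p of 0.089 and 0.11. The count was 1 without LPS sample 1, 2 or 4 or LPS/HI sample 2 or 5. The lysosomal reductase Ifi30, an interferon target outside the list, differed by -0.30 ± 0.055 (SE, adjusted p = 0.0091), and its call held throughout.

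Of 47 lysosomal genes 1 was called higher and 2 lower, against 1.22% and 0.719% of all genes. With quantile normalization none was called lower, and after median centring 4 were. The collagen-cleaving cathepsin Ctsk rose by 0.33 (adjusted p = 0.022), and the glycosidase Gusb differed by -0.27 (adjusted p = 0.045). Of 24 genes of cholesterol synthesis, 22 had a lower mean in LPS/HI with a median of -0.11, and 1 was called lower, beside 0.719% of all genes. After median centring 5 of the 24 were called lower. None was with a replicate block, or without LPS sample 1, 2, 4 or 5 or LPS/HI sample 1, 2, 3, 4 or 5. Of 23 genes of cholesterol export and lipid droplets, Cpt1a, which carries fatty acids into mitochondria, rose by 0.19 (adjusted p = 0.039), beside 1.22% of all genes. The calls of Ctsk, Gusb and Cpt1a were lost without LPS sample 4, with adjusted p of 0.089 to 0.135, and in 4, 13 and 8 of the 23 such fits in all.

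Of 24 genes of alternative activation and repair, Igf1 and Anxa1 rose, and of 22 leukocyte adhesion molecules Selp rose, beside 1.22% of all genes. Of 18 chemokines of monocytes and T cells none was called, with a median of 0.087 and 3 genes at an unadjusted limma p under 0.05. Of 18 markers that the study examined or named in these libraries, Selp, Olfm4, Mmp9, Mcam and the interleukin 1 receptor Il1r1 (0.36, adjusted p = 0.034) rose, beside 1.22% of all genes. Since the study named these genes from the same samples, the count is not independent evidence. Leaving out 1 library gave 0 to 7 called genes of this list, with 0 without LPS sample 4, 1 without LPS sample 2 or LPS/HI sample 2 or 4, 2 without LPS sample 5 or LPS/HI sample 1, and 3 without LPS sample 3 or LPS/HI sample 3 or 5. Il1r1 lost its call in 7 of 23 such fits, with an adjusted p of up to 0.113.

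No gene was called among 67 nuclear-encoded subunits of oxidative phosphorylation (median -0.089) or 13 of the mitochondrial genome (0.013), 70 cytosolic ribosomal proteins (-0.052), 24 genes of antigen presentation (-0.023), 30 immediate early genes (0.019), 16 heat shock proteins (0.054), 27 NRF2 targets and iron genes (0.045), 32 phagocytic and Fc receptors (0.019) or 18 purinergic genes (-0.0019). In these lists the limma p passed an unadjusted 0.05 in 12, 0, 0, 3, 6, 2, 6, 9 and 5 genes. Of the subunits of oxidative phosphorylation, 62 of 67 had a lower mean in LPS/HI, and of the ribosomal proteins 61 of 70. After median centring 2 of the 67 and 1 of the 18 purinergic genes were called lower, and none of the remaining lists.

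Beside the matrix, vessel and neutrophil genes, markers of 8 further cell types were examined, against 1.22% of all genes called higher and 0.719% called lower. List medians were 0.25 for monocytes, 0.19 for border-associated macrophages, 0.077 for neurons, 0.0036 for astrocytes, 0.21 for the oligodendrocyte lineage, 0.028 for lymphocytes, 0.13 for platelets and erythroid cells and 0.011 for choroid plexus. Of 23 monocyte genes, the antiviral Ifitm3 rose by 0.49 ± 0.13 (SE, adjusted p = 0.046) and Plac8 fell, while the receptor Ccr2 differed by 0.21 (adjusted p = 0.65). The summed level of the 23 monocyte genes was 15.69 to 15.83 in LPS and 15.74 to 16.04 in LPS/HI. Of 16 genes of border-associated macrophages, the endocytic adaptor Dab2 rose by 0.25 (adjusted p = 0.047), with a summed level of 15.64 to 16.002 and 15.85 to 16.05. Of 21 neuronal genes, the growth cone proteins Stmn2 (0.30, adjusted p = 0.034) and Gap43 (0.37, adjusted p = 0.048) rose, with a summed level of 12.22 to 12.44 and 12.28 to 12.44. Without LPS sample 4 the adjusted p of Ifitm3, Dab2, Stmn2 and Gap43 was 0.0925 to 0.171, and their calls were lost in 14, 18, 8 and 20 of the 23 fits that left out 1 library.

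Astrocytes with 18 genes, the oligodendrocyte lineage with 19, lymphocytes with 21, platelets and erythroid cells with 16 and choroid plexus with 13 had no called gene, and 4, 2, 4, 1 and 0 genes at an unadjusted limma p under 0.05. Their summed levels overlapped between LPS and LPS/HI, with 15.79 to 16.04 and 15.91 to 16.11 for astrocytes, 14.24 to 14.46 and 14.25 to 14.56 for oligodendrocytes, 11.82 to 12.05 and 11.86 to 12.16 for lymphocytes, 12.05 to 12.63 and 12.28 to 13.35 for platelets and erythroid cells, and 14.33 to 15.03 and 14.58 to 14.86 for choroid plexus. The part of these cells in any difference was not tested. With only the LPS and LPS/HI samples in the fit, 2 of the 19 oligodendrocyte genes were called higher.

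The same HI without prior LPS was measured by NaCl/HI against Sham, which shares no sample with LPS/HI against LPS. That comparison also holds the saline injection, which is not described for Sham pups. There, 2 of 20301 genes were called (0.00985%). Of the 248 genes that rose in LPS/HI, 149 had a higher mean in NaCl/HI than in Sham (60.08%), beside 46.4% of all genes, and their median difference without LPS was 0.039. Of the 146 genes that fell, 30 were lower in NaCl/HI than in Sham (20.55%) and 116 were higher (79.45%), and their median difference without LPS was 0.065. Over all genes both HI differences had the same sign in 50.38% and correlated with Pearson's r = 0.14, a description across genes that share libraries.

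By list, the median difference of the matrix genes was 0.32 after LPS and 0.058 without it, that of endothelial genes 0.20 and -0.13, that of neutrophil genes 0.53 and 0.0068, and that of mitosis genes -0.30 and 0.14. All 40 mitosis genes had a higher mean in NaCl/HI than in Sham and a lower mean in LPS/HI than in LPS. The genes of injury-associated microglia had medians of 0.18 and 0.28. Lpl differed by 0.80 after LPS and by 0.69 without it, Postn by 1.05 and 0.47, Acod1 by 1.41 and 0.83, and Mmp3 by 0.82 and 0.42.

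**Figure D5:**
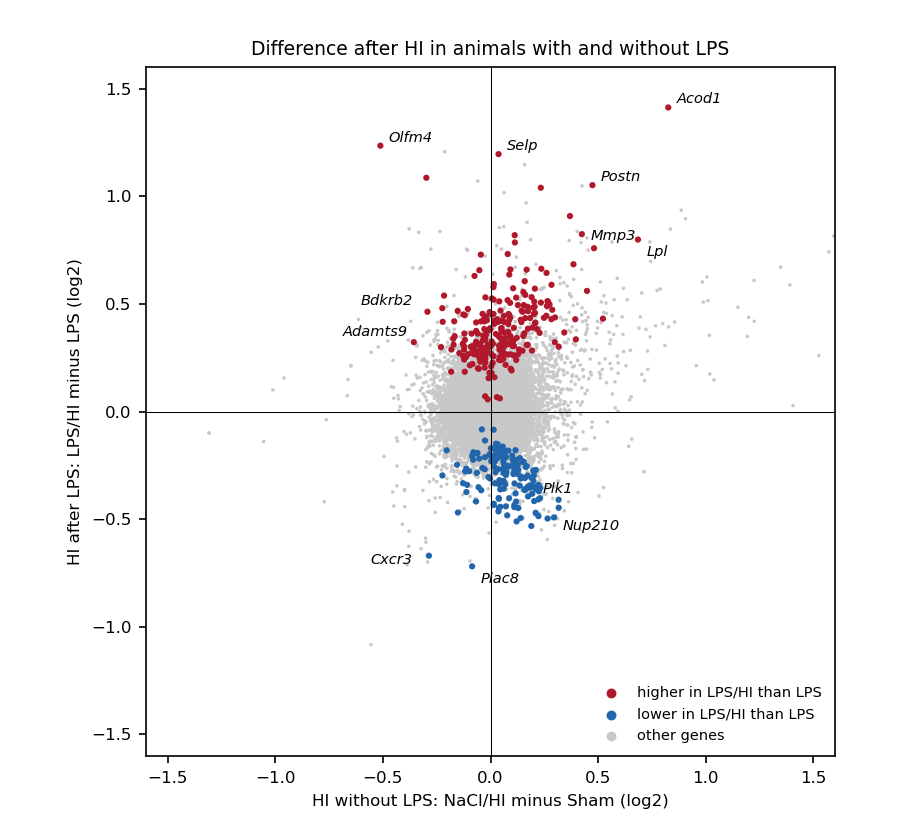
Difference between NaCl/HI and Sham (horizontal axis) against the difference between LPS/HI and LPS (vertical axis), both on the log2 scale, 1 point per gene, where red points were called higher and blue points lower after HI in LPS-treated pups. The axes leave out 4 genes, and most blue points lie right of 0, since 116 of the 146 genes that fell after LPS were higher after HI without LPS.

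The difference between both HI effects was itself tested as the interaction, which passed in 220 genes (1.08%), with the HI difference higher after LPS in 74 (0.365%) and lower in 146 (0.719%). The saline injection, described for NaCl/HI but not for Sham pups, enters the interaction and cannot be told apart from it. Of the 40 mitosis genes 18 passed, all with a lower difference after LPS, as did 4 of 40 endothelial genes with a higher one and 1 of 39 matrix genes. For Plk1 the HI difference was -0.42 after LPS and 0.20 without it, an interaction of -0.62 ± 0.12 (SE, adjusted p = 0.019). The nuclear pore protein Nup210 had -0.49 and 0.30, an interaction of -0.79 ± 0.12 (SE, adjusted p = 0.010), and cyclin F (Ccnf) had -0.34 and 0.22 with an interaction of -0.56 ± 0.087 (SE, adjusted p = 0.010).

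In the other direction, Adamts9 differed by 0.32 after LPS and -0.36 without it, an interaction of 0.68 ± 0.10 (SE, adjusted p = 0.010). The bradykinin receptor Bdkrb2 had 0.46 and -0.29 (interaction 0.76 ± 0.12, SE, adjusted p = 0.012), and the oncostatin M receptor Osmr 0.47 and -0.15 (interaction 0.62 ± 0.11, SE, adjusted p = 0.012). The interaction was 1.75 ± 0.42 for Olfm4 (SE, adjusted p = 0.047), 1.16 ± 0.40 for Selp (SE, adjusted p = 0.16), 0.58 ± 0.26 for Postn (SE, adjusted p = 0.28), 0.59 ± 0.49 for Acod1 (SE, adjusted p = 0.62) and 0.11 ± 0.25 for Lpl (SE, adjusted p = 0.88). The number of genes past the interaction was 32 without LPS sample 2, 40 without LPS sample 4 or LPS/HI sample 2, 47 without LPS/HI sample 4, 41 without Sham sample 4 or NaCl/HI sample 1, 42 without NaCl/HI sample 2, 50 without Sham sample 2, 53 without NaCl/HI sample 5, 78 without LPS/HI sample 6, 96 without LPS/HI sample 5, 111 without Sham sample 1, 122 without NaCl/HI sample 6, 127 without Sham sample 6, 131 without LPS sample 1, 140 without Sham sample 3 and 493 without NaCl/HI sample 4.

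Set beside Sham, a comparison that uses the same LPS and LPS/HI samples, the genes that rose had a median difference of -0.20 in LPS and of 0.15 in LPS/HI, and the genes that fell had 0.50 and 0.18. The mitosis list had 0.70 in LPS and 0.40 in LPS/HI relative to Sham, and the matrix list -0.14 and 0.19. Plac8 stood 1.17 above Sham in LPS and 0.45 above it in LPS/HI, Ccnb2 0.86 and 0.42, and Cxcr3 0.54 above Sham in LPS and -0.13 from it in LPS/HI. Selp stood 0.17 above Sham in LPS and 1.37 in LPS/HI, and Postn -0.20 from Sham in LPS and 0.85 above it in LPS/HI.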

How the data were processed

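RNA of CD11b/c-positive cells was sequenced from unstranded libraries. The authors deposited 1 table of log2 values for 20301 genes in 23 samples. Per the study's methods and the submitters' processing notes, reads were quantified with kallisto 0.48.0 on mRatBN7.2, summarised per gene with tximport, stripped of genes with few counts, transformed with the regularised logarithm of DESeq2, and adjusted by removing 3 surrogate variables. Protein-coding entries with the same symbol were summed. The authors checked read quality with FastQC 0.11.9 and MultiQC 1.14. Counts were not used here, so depth is unknown and no count test was run.

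From this table, a group-means model of all 23 samples was fitted with limma 3.58.1 in R 4.3.3 (empirical Bayes with a variance trend, Benjamini-Hochberg adjustment over all genes, threshold 0.05). The removed surrogate variables left a residual rank of 16, which replaced the 19 degrees of freedom of the design. The code was tested on simulated data. Errors after ± are SD for levels and SE for differences. A summed level is the log2 of the sum of the members' linear values. Samples were grouped by their labels. The labels call the replicates biological and name no litters.

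Named genes were those past the threshold and a fold of 2, the 15 largest rises and 15 largest falls with separate groups, up to 4 called members per list by p, up to 2 further members given as values, microglial and other cell markers, and up to 10 genes that also passed the interaction. Identifier-only symbols were left out of the second set. Further collagens, laminins, mitotic genes and uncalled neutrophil genes were chosen after their values were seen. The members, the 43 gene lists and the tests were chosen with earlier results of these data known. A few single genes are not reported here. Alternatives were other variance models, blocks, scalings, filters and left-out libraries. No genome of the build used was at hand, so promoters come from RefSeq on GRCr8. Figures were drawn with matplotlib 3.10.9.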

Additional observations from a re-analysis of the deposited data

Results flagged for a closer look

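In 13 of 188 groups of samples checked (82 named called genes and the mean levels of 12 gene lists, each in LPS and in LPS/HI), 1 sample lay far from the others by Dixon's criterion at the 95% level, which chance meets in about 1 in 20 groups. LPS/HI sample 3 was high in the cell division genes Ccnb2 (10.53), Aurkb (10.25) and Ccnf (10.45), in the nuclear pore gene Nup210 (11.65) and in Cxcl17 (8.438). LPS/HI sample 1 was low in the histone genes Hist3h2ba (7.648) and H3c1 (10.42) and high in Dab2 (13.37). LPS/HI sample 5 was low in Cxcr3 (4.253) and high in Kcnj8 (7.657), and LPS/HI sample 4 was high in Gadd45a (9.091). LPS sample 4 was low in Adamts9 (8.666) and high in Ccnf (10.86).

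In 20 of the 82 named called genes the HI differences after LPS and without LPS were unlike. This was judged by the interaction term of the limma fit (adjusted p under 0.05), which 1.08% of all genes passed. Some of the 20 genes were named because they passed the interaction, so their count cannot be read against that share. The interaction was positive for Olfm4 (1.75), Bdkrb2 (0.757), Adamts9 (0.679), Osmr (0.62), Akap12 (0.577), the membrane protein Crim1 (0.45), Flt1 (0.379) and prominin 1 (Prom1, 0.368). It was negative for Nup210 (-0.787), Hist3h2ba (-0.764), Hist1h2bo (-0.726), Plk1 (-0.618), the centrosomal Cep72 (-0.595), Ccnf (-0.563), Pttg1 (-0.554), Tnfaip8l3 (-0.545), Cdc20 (-0.537), Ccnb2 (-0.512), Aurkb (-0.501) and Ifi30 (-0.469).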

How the results depend on the processing

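None of the 82 named called genes changed sign under the alternatives run, but most called genes were higher in LPS/HI in the reported fit (248 higher, 146 lower) and most were lower with median centring (198 higher, 404 lower). The 394 called genes became 1006 with 19 residual degrees of freedom, 197 with only the LPS and LPS/HI samples, 602 with median centring, 4059 with array weights, 1 and 95 within the first and second library series, and 81 to 462 when 1 library was left out. An exact Wilcoxon rank-sum test called 0 genes after adjustment (smallest adjusted p 0.104), with 2935 at an unadjusted p under 0.05 beside 3137 by limma. The other variance models, scalings and filters gave 320 to 477. The 7 genes past a fold of 2 became 12 with 19 residual degrees of freedom, 2 without a variance trend, 2 with robust estimation, 3 with only the contrast's groups, 3 with quantile normalization, 28 at a fold of 1.5, and 1 to 11 when 1 library was left out. The 220 genes past the interaction became 666 with 19 residual degrees of freedom, 142 without a variance trend, 2207 with array weights, and 32 to 493 when 1 library was left out. The share of genes that rose and were higher in NaCl/HI than in Sham was 60.08%, and 53.53 to 69.05% without 1 library. The share of genes that fell and were lower in NaCl/HI was 20.55%, 28.71% with median centring and 11.69 to 29.25% without 1 library. Apart from smaller sample sets, the cause of these changes was not tested.

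Replicate numbers are shared between groups, but same-numbered LPS and LPS/HI samples did not deviate together (r from -0.475 to 0.127 over 5 pairs, and 1 LPS/HI sample correlated best with its own number). Removing 3 surrogate variables can take out shared variation, so these correlations cannot tell whether the numbers pair the samples. With a replicate block 89 genes were called, 3 of them past a fold of 2, and 2 passed the interaction. Within the lists, the fit with the block called 8 matrix, 1 endothelial, 1 pericyte, 1 angiogenesis, 2 protease and 2 mitosis genes, and none of the neutrophil list, of the markers named by the study or of the lipid and injury-associated microglial genes.

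Of 82 named called genes, 26 kept their call in all 23 fits that left out 1 library and 55 lost it without LPS sample 4, while 51 lost it with the replicate block, 38 with only the contrast's groups, 21 without a variance trend, 18 with quantile normalization, 10 with robust estimation, 7 with median centring and 2 with a library series block. Counting matrix and mitosis genes under each alternative was chosen after seeing the data. Depth is unknown for these values, so low-level genes such as Mmp3 and Gapt cannot be weighted by their reads.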
